A study of Mus musculus with 6 samples.

Results

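The genes described here are 9 members of the matrix metalloproteinase system, the metalloproteinases Mmp8, Mmp9, Mmp12, Mmp13, Mmp14 and Mmp19 and the tissue inhibitors Timp1, Timp2 and Timp3. They were chosen by gene symbol, and all 9 were among the 16519 genes of the deposited count table and among the 12605 genes that passed the filter on low counts. Bulk RNA sequencing was done on mouse bone marrow derived macrophages (BMDMs), macrophages grown in culture from bone marrow. The TRMT61A-KO cells (KO, 3 libraries) came from Trmt61af/fLysmCre mice, in which a Cre recombinase driven from the lysozyme gene Lyz2 deletes floxed Trmt61a in myeloid cells, and the TRMT61A-WT cells (WT, 3 libraries) came from Trmt61af/f mice without Cre. Both groups carry the floxed allele, so Cre itself and the loss of Trmt61a, the catalytic subunit of the tRNA m1A methyltransferase, cannot be told apart. No strain, age, sex, culture time or stimulus is given in the sources used here, and nothing ties the replicates to separate animals. The p-values therefore measure only how these libraries vary, and part of that may be technical.

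Matrix metalloproteinases are zinc-dependent endopeptidases that cut collagens, elastin and other matrix proteins as well as cytokines and receptors at the cell surface. Most are secreted as inactive proenzymes whose prodomain must be removed, and TIMPs bind the active site of the mature enzymes. In macrophages and their osteoclast relatives these enzymes are known for remodelling of matrix and for the passage of cells through tissue.

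Gene counts per library summed to 37021855 in WT 1, the smallest, and 41033179 in WT 3, the largest. Trmt61a was at 0.608 ± 0.128 CPM in KO, against 4.64 ± 0.648 CPM in WT (counts-per-million, n = 3, SD). Lyz2, the gene that carries Cre, was at 9503 ± 1161 CPM in KO, against 18874 ± 2120 CPM in WT (n = 3, SD). Of the macrophage marker list all 18 genes were detected, with Apoe, Gpnmb and Csf1r among the abundant ones, and Csf1r, the receptor of the macrophage growth factor, was at 4444 CPM in KO, against 4464 CPM in WT. Cd163, of the same list, was lower in KO, at 8.70 ± 0.481 CPM, against 27.4 ± 4.41 CPM in WT (n = 3, SD). Its log2 fold change was -1.65 (edgeR adjusted p = 0.000337).

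Mmp13 (chr9:7272514-7283333, mm10), Mmp12 (chr9:7344397-7360461) and Mmp8 (chr9:7558429-7568486) lie on the same strand of chromosome 9, with 61.1 kb between Mmp13 and Mmp12 and 198 kb between Mmp12 and Mmp8. The other genes are spread over the genome, Mmp9 on chromosome 2 (164940326 to 164955850), Mmp14 on 14 (54431598 to 54442456), Mmp19 on 10 (128790910 to 128800827), Timp1 on X (20870166 to 20874737), Timp2 on 11 (118301061 to 118355411) and Timp3 on 10 (86300412 to 86349505). The best known regulatory element of this family is the AP-1 site, bound by Fos and Jun proteins, so windows from 250 bases before to 50 bases after the annotated start were searched on both strands. Windows of the RefSeq annotation (GRCm38.p6) matched 7 of the 9 members, and Mmp9 and Mmp19 were not matched. The motif TGANTCA, which reads the same on both strands, was found in the windows of 2 members, Mmp13 and the second of 2 Mmp12 starts, and it was held by 7.81% of all 32851 windows. The variant TGAGTAA, known from the Timp1 promoter, was found in 1 member, Timp1, and in 2.68% of all windows. The 3 windows are shown 5′ to 3′ because they hold the matches, which stand in capitals, 35 bases before the start of Mmp13, 44 bases before that of Mmp12 and 26 bases after that of Timp1.
Mmp13, chr9:7272264-7272563, plus strand: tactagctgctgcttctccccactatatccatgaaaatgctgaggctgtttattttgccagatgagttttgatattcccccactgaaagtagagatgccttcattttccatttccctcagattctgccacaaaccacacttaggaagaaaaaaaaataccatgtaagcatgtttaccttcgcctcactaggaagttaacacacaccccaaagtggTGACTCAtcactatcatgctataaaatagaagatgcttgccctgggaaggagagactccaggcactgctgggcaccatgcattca
Mmp12, chr9:7347124-7347423, plus strand: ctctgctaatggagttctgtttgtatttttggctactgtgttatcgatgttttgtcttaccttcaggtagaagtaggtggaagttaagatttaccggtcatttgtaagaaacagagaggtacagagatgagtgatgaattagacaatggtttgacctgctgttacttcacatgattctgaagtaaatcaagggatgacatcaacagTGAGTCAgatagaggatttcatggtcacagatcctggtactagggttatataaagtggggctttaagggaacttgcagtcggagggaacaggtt
Timp1, chrX:20869916-20870215, plus strand: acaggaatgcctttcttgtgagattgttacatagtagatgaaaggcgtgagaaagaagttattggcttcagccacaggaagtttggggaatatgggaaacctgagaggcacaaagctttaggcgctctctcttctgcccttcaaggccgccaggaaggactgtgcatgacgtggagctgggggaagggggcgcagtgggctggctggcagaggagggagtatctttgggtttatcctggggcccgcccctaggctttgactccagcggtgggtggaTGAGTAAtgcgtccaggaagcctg
A match is a run of letters and does not show that a factor binds there.

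Mmp12, the macrophage elastase, and Timp2, which inhibits many metalloproteinases and takes part in the activation of proMMP2 at the cell surface, were by far the most abundant of the 9 transcripts. Scaled to the length of all annotated exons, Mmp12 stood at 179 ± 50.2 CPM per kilobase in KO and 165 ± 26.8 in WT, and Timp2 at 142 ± 6.44 in KO and 148 ± 10.9 in WT (n = 3, SD). Next came Mmp19 at 19.4 CPM per kilobase over the 6 libraries, Timp1 at 15.96, Mmp9 at 14.4, Mmp14 at 9.16, Mmp8 at 8.10 and Mmp13 at 6.44, and Timp3 was lowest at 2.51. Neighbours in this order overlapped in the range of their 6 libraries, except that Timp2 was 7.49 times Mmp19 and Mmp13 was 2.57 times Timp3. The order in the middle depended on the length used. With the median length of the coding transcripts, Mmp12 came to 943 CPM per kilobase and Timp2 to 255, still the first 2, while Mmp9 moved above Mmp19 and Timp3 moved above Mmp13, at 8.04 against 6.44 CPM per kilobase.

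None of the 9 genes was called different between KO and WT. No member passed an adjusted p of 0.05 (edgeR quasi-likelihood test, Benjamini-Hochberg over 12605 genes), where 0.0317% of tested genes did. No member reached an unadjusted p under 0.05 either, where 3.1% of tested genes did, and both numbers were 0 in limma voom and in DESeq2, which called 0.114% of its tested genes. Values were higher in KO for 4 members and lower for 5, with a median log2 fold change (log2FC, KO minus WT) of -0.01, beside 50% of tested genes above 0 and a median of 8.4e-05. KO and WT libraries overlapped for every one of the 9, whereas they did not for 8.65% of tested genes. The adjusted p was 0.999949 for each member in edgeR.

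**Figure D1:**
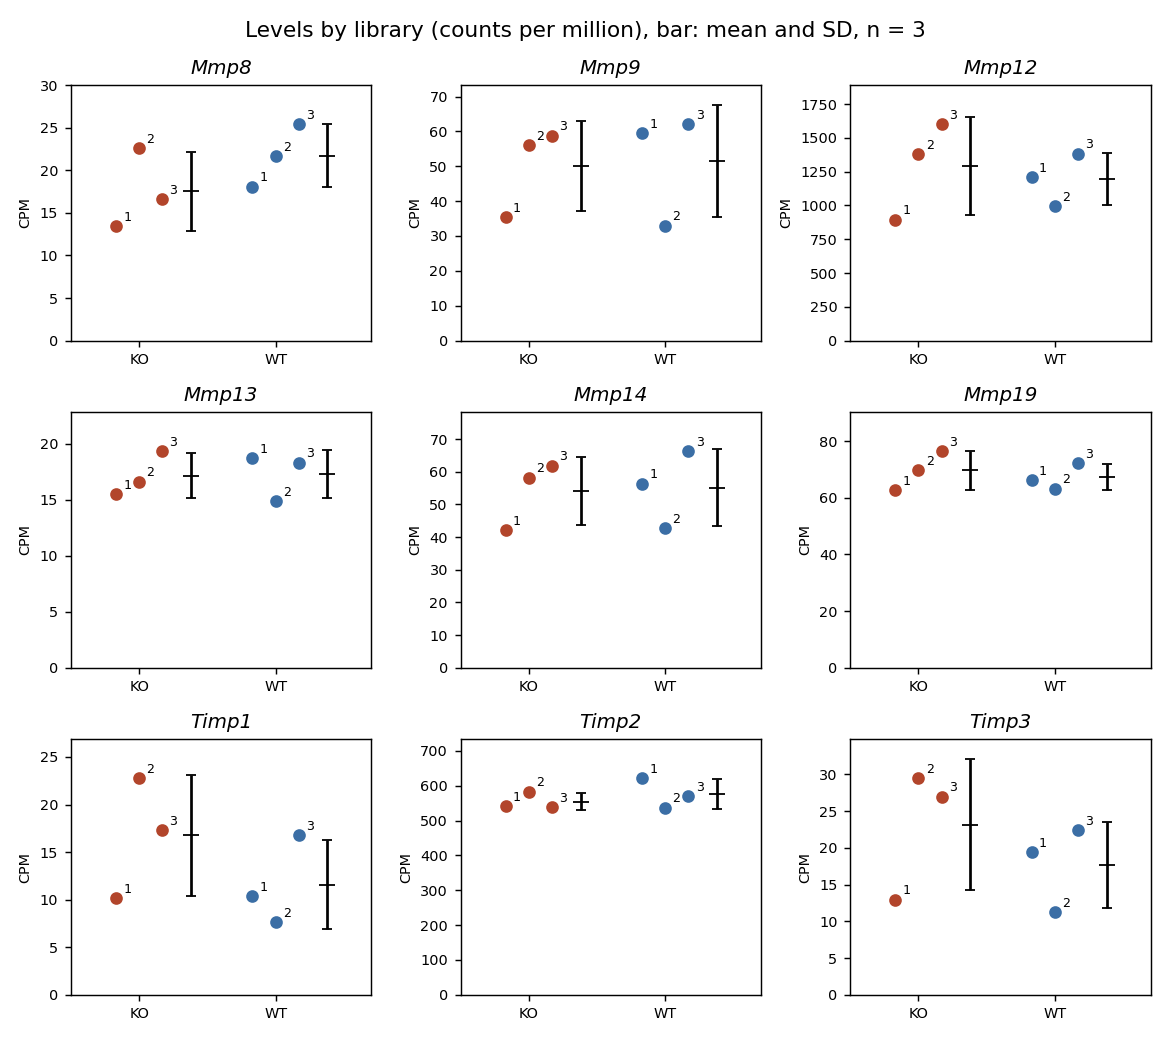
Levels of the 9 genes in CPM (vertical axis from 0) in each KO and WT library, numbered by replicate, with the mean and SD of 3 libraries as a black bar. In every panel the KO and WT points overlap, and KO 1 and WT 2 are the 2 lowest points for 7 of the 9 genes.

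Among the secreted enzymes, Mmp12 was at 894, 1379 and 1604 CPM in KO 1, KO 2 and KO 3, against 1208, 995 and 1382 CPM in WT 1, WT 2 and WT 3. Both the lowest and the highest library were KO, and the log2FC was 0.11 ± 0.25 (SE) (95% interval from -0.51 to 0.74). Exons of Mmp12 overlap in GENCODE M21 with those of Mmp1b on the other strand, a gene that is absent from the deposited counts. Without a stated strand setting reads of the 2 genes cannot be told apart. Mmp9, the gelatinase B that neutrophils and osteoclasts also make, was at 35.4, 56.1 and 58.7 CPM in KO 1, KO 2 and KO 3, against 59.5, 32.9 and 62.2 CPM in WT 1, WT 2 and WT 3. One library of each genotype was low and the rest lay between 56.1 and 62.2 CPM, with a log2 fold change of -0.04 (interval from -0.87 to 0.79). Mmp8, the neutrophil collagenase, was at 13.4, 22.6 and 16.6 CPM in KO 1, KO 2 and KO 3, against 18.1, 21.6 and 25.5 CPM in WT 1, WT 2 and WT 3. It had the smallest p of the 9 (0.164 unadjusted in edgeR, rank 1540 of all tested genes), with a log2FC of -0.31 ± 0.20 (SE), and KO 2 lay above 2 of the WT libraries. Mmp13, collagenase 3, was at 15.5, 16.6 and 19.3 CPM in KO 1, KO 2 and KO 3, against 18.7, 14.8 and 18.3 CPM in WT 1, WT 2 and WT 3. Its libraries differed little, by 1.30 times between highest and lowest, and the log2 fold change was -0.01 (interval from -0.28 to 0.26).

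Mmp19, a secreted enzyme that cuts basement membrane proteins, was the steadiest of the metalloproteinases, between 62.7 and 76.4 CPM in KO and between 63.2 and 72.3 CPM in WT. Its log2 fold change was 0.05 with a 95% interval from -0.13 to 0.23. Exons of Mmp19 overlap those of Tmem198b on the other strand, which had 768 to 990 counts per library beside 2364 to 3123 for Mmp19, and the same limit applies. Mmp14, which sits in the plasma membrane, cuts collagen around the cell and activates proMMP2, was at 42.2, 58.2 and 61.9 CPM in KO 1, KO 2 and KO 3, against 56.3, 42.8 and 66.4 CPM in WT 1, WT 2 and WT 3. Again KO 1 and WT 2 were the low libraries, and the log2 fold change was -0.03 with an interval from -0.54 to 0.48.

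The inhibitors covered the extremes of spread. Timp1, a secreted inhibitor and growth factor-like protein, was at 10.2, 22.8 and 17.3 CPM in KO 1, KO 2 and KO 3, against 10.4, 7.64 and 16.8 CPM in WT 1, WT 2 and WT 3. The 2 highest libraries were KO, but KO 1 lay below 2 of the WT libraries. Its mean was 16.7 ± 6.33 CPM in KO, against 11.6 ± 4.71 CPM in WT (n = 3, SD), a log2FC of 0.53 with a standard error of 0.41 and an interval from -0.48 to 1.54. Timp3, an inhibitor that binds to the extracellular matrix and also acts on ADAM17, was at 12.9, 29.5 and 27.0 CPM in KO 1, KO 2 and KO 3, against 19.4, 11.2 and 22.4 CPM in WT 1, WT 2 and WT 3. The same 2 KO libraries were highest, and the log2FC was 0.39 ± 0.41 (SE) (interval from -0.66 to 1.44). Exons of Timp3 overlap those of Syn3 on the other strand, which had 0 to 5 counts per library. Timp2 was the least variable, at 541, 583 and 538 CPM in KO 1, KO 2 and KO 3, against 621, 537 and 570 CPM in WT 1, WT 2 and WT 3, with a log2 fold change of -0.06 and an interval from -0.20 to 0.09. The exact two-sided permutation test over the 6 libraries gave p between 0.3 (Mmp8 and Timp1) and 1 (Mmp13), where the smallest p that 3 against 3 libraries allow is 0.1.

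**Figure D2:**
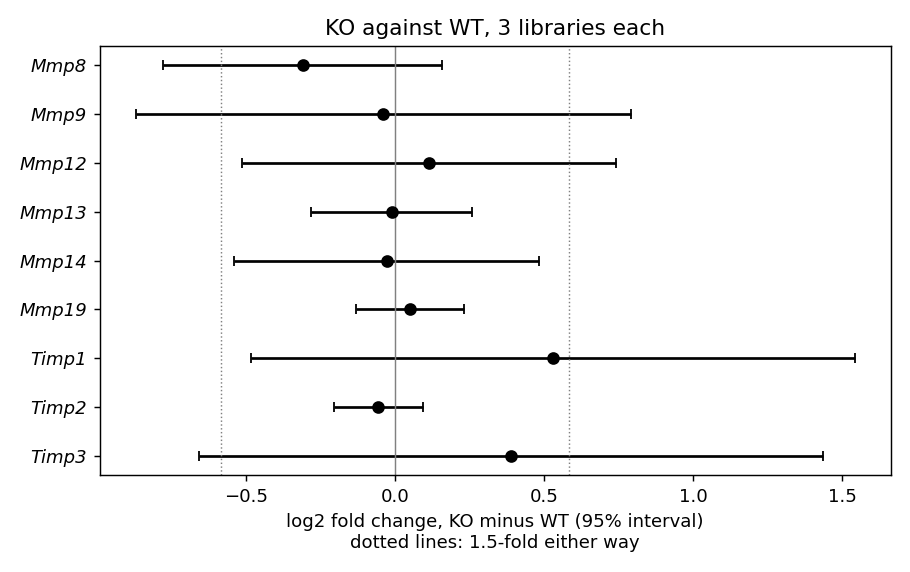
Log2 fold change of KO minus WT for each gene (points) with its 95% interval (bars), and dotted lines at 1.5-fold either way. Every interval covers 0, and the widest belong to Timp1 (-0.48 to 1.54) and Timp3 (-0.66 to 1.44).

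These intervals give the range of fold changes that fit the libraries at the 95% level. They rest on the variation between these libraries only, so they do not bound a difference between animals. The 95% interval lay within 1.5-fold either way for 4 members, Mmp13, Mmp14, Mmp19 and Timp2, beside 72.4% of tested genes. It lay within 2-fold for 7 members, beside 84.3% of tested genes, and only Timp1 and Timp3 among the 9 had intervals that reached past 2-fold. The biological coefficient of variation within a genotype was 27.2% for Timp1 and 26.3% for Timp3, at the percentiles 85.3 and 84.6 of tested genes, and 6.92% for Timp2 and 8.06% for Mmp19. Leaving out KO 1 and WT 3 together, which had the lowest and the highest neutrophil markers in earlier results of these data, gave the only call of a member, Timp1 (log2 fold change 1.16, edgeR adjusted p = 0.00283). KO 1 is the lowest KO library for Timp1 and WT 3 the highest WT library, so leaving them out raises the difference by construction, and the fold change of all 9 members rose with it. In that setting 86 genes were called, 73 of them higher in KO, against 4 with all libraries. The adjusted p of Timp1 over all alternatives ran from 0.00283 to 0.999965.

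Libraries of the same genotype differed from each other, and in the same way for most of the family. KO 1 and WT 2 were the 2 lowest libraries for 7 of the 9 members, Mmp9, Mmp12, Mmp13, Mmp14, Mmp19, Timp1 and Timp3, as they were for 15.6% of all tested genes. This pair was also the most frequent of the 15 possible pairs over all tested genes, the least frequent being KO 3 and WT 2 at 4.08%. KO 1 was below the 6-library mean for all 9 members and WT 2 for 8, with median deviations of -0.38 and -0.29 on the log2 scale. WT 3 was above it for all 9, with a median deviation of 0.22. The exceptions were Mmp8, for which WT 2 lay above its 6-library mean, and Timp2, for which WT 2 and KO 3 were the lowest. The 9 genes were measured in the same 6 libraries, so they are not independent points, and this order was picked out after the values were seen.

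Several marker lists of other cells, and that of dividing cells, moved with the same libraries. The summed level of 17 neutrophil markers, Mmp8 and Lcn2 included, was 2039, 3065 and 3104 CPM in KO 1, KO 2 and KO 3, against 2603, 2071 and 3540 CPM in WT 1, WT 2 and WT 3. The stromal and bone matrix list (17 genes with values, led by Col1a2 and Col1a1) summed to 154, 332 and 283 CPM in KO 1, KO 2 and KO 3, against 214, 156 and 224 CPM in WT 1, WT 2 and WT 3. Osteoclast markers (10 genes with values, led by Atp6v0d2 and Ckb) lay between 692 and 1042 CPM in KO and between 711 and 962 CPM in WT, and the 16 cell cycle genes between 639 and 1023 CPM in KO and between 597 and 990 CPM in WT. In these 4 lists KO 1 and WT 2 had the lowest sums, as they had for mast cell, basophil and eosinophil markers (36.6 to 77.3 CPM in KO, 39.5 to 90.0 CPM in WT) and dendritic cell markers (136 to 278 CPM in KO, 137 to 246 CPM in WT). They did not for monocyte markers (1269 to 1491 CPM in KO, 1140 to 1389 CPM in WT), endothelial markers (84.4 to 99.1 CPM in KO, 77.9 to 85.2 CPM in WT), lymphocyte markers (79.7 to 86.6 CPM in KO, 79.5 to 97.1 CPM in WT) or erythroid and megakaryocyte markers, whose sums of 173 to 202 CPM in KO and 154 to 157 CPM in WT did not overlap. A sum follows its most abundant genes. By mean log2 deviation over tested genes, KO 1 and WT 2 were also lowest for monocyte (-0.24 and -0.13) and lymphocyte markers (-0.77 and -0.44). The same held for erythroid and megakaryocyte markers (-0.28 and -0.57). By this measure WT 2 was highest for dendritic cell markers (0.15), whose sum is led by Itgax. For mast cell, basophil and eosinophil markers WT 1 (-0.55) lay below WT 2 (-0.25). Macrophage markers, in which Lyz2 weighs heavily, summed to between 43257 and 47108 CPM in KO and between 52475 and 56004 CPM in WT. No gene of these lists that has values was at 0 in every library. In bulk RNA fewer cells of a type and less RNA per cell cannot be told apart, and the part of these markers in the levels of the metalloproteinases and inhibitors was not tested.

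**Figure D3:**
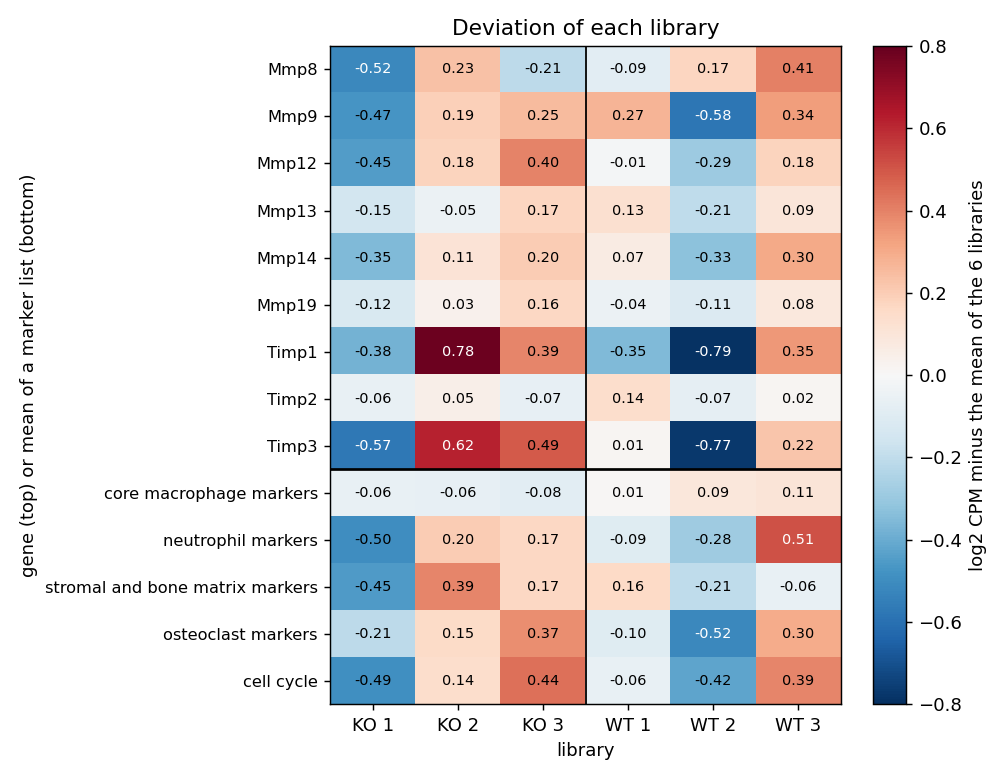
Deviation of each library (columns, KO left of WT) from the mean of the 6 libraries on the log2 CPM scale for the 9 genes (upper rows) and as the mean over the genes of 5 marker lists (lower rows). KO 1 is below 0 for all 9 genes and WT 2 for 8, and Timp1 ranges from -0.79 in WT 2 to 0.78 in KO 2.

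A pair of members was compared with all genes for the likeness of their profiles, by Euclidean distance between centred log2 CPM values over the 6 libraries among 11345 genes whose mean over the 6 libraries was at least 1 CPM. For Timp1, which had the widest spread, the nearest were Ddr2, a collagen receptor (distance 0.185), Cavin2, a caveola component (0.188), Itga2, an integrin chain that binds collagen (0.197), Kalrn, a guanine nucleotide exchange factor (0.238), and Fhdc1 (0.299). Ddr2 was at 4.96, 9.59 and 7.66 CPM in KO 1, KO 2 and KO 3, against 4.96, 3.64 and 7.74 CPM in WT 1, WT 2 and WT 3. For Mmp8, which had the smallest p, they were Nxpe3 (0.219), Mgll, monoglyceride lipase (0.277), Snn (0.313), Heg1 (0.322) and Lbp, the lipopolysaccharide binding protein (0.333). None of these 10 genes had an adjusted p under 0.05 or an unadjusted p under 0.05 (edgeR). They were chosen for profiles like those of Timp1 and Mmp8 in the same libraries, so this adds no separate evidence.

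The balance of enzyme to inhibitor transcripts was also set side by side per kilobase of all annotated exons. These are RNA levels of the members only and give no balance of protein or activity. Other metalloproteinases with counts, such as Mmp27 and Mmp2, are not in the sums. The 6 metalloproteinases summed to 235 ± 59.1 CPM per kilobase in KO and 223 ± 35.6 in WT, and the 3 inhibitors to 164 ± 13.8 in KO and 163 ± 13.6 in WT (n = 3, SD). Their ratio was 1.12, 1.41 and 1.77 in KO 1, KO 2 and KO 3, against 1.30, 1.26 and 1.53 in WT 1, WT 2 and WT 3, so that KO libraries lay below and above the whole WT range. Here Mmp12 made up between 72.8% and 77.9% of the enzyme sum in KO and between 73.7% and 74.2% in WT, and Timp2 between 83.6% and 91.4% of the inhibitor sum in KO and between 87.1% and 93.2% in WT. These levels depended on the length used. With the median length of the coding transcripts the ratio was 2.86, 3.78 and 4.80 in KO 1, KO 2 and KO 3, against 3.36, 3.23 and 4.03 in WT 1, WT 2 and WT 3, and Mmp12 made up between 90.7% and 92.6% of the enzyme sum in KO and between 90.8% and 91.3% in WT. The KO libraries again lay on both sides of the WT range. Of the 18 ratios of 1 enzyme to 1 inhibitor, 3 did not overlap between genotypes, as was true of 8.85% of all pairs of tested genes. These 3 shared genes, being Mmp8 to Timp1, Mmp9 to Timp1 and Mmp9 to Timp3, and were picked out after their values were seen. Mmp9 to Timp1 was 0.875, 0.619 and 0.850 in KO 1, KO 2 and KO 3, against 1.44, 1.08 and 0.928 in WT 1, WT 2 and WT 3, with means of 0.781 ± 0.141 in KO and 1.15 ± 0.264 in WT (n = 3, SD). Mmp8 to Timp1 averaged 0.399 ± 0.0733 in KO and 0.745 ± 0.258 in WT, and Mmp9 to Timp3 averaged 5.23 ± 0.976 in KO and 6.73 ± 0.338 in WT (n = 3, SD).

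Among the other metalloproteinases and Timp4, 14 of 18 genes had values and 10 were tested, with 6 higher and 4 lower in KO, a median log2 fold change of 0.19 beside 8.4e-05 for all tested genes, and none passing (0 at an unadjusted p under 0.05 in edgeR). Mmp27 was the most abundant, at 23.0 ± 1.39 CPM in KO, against 25.7 ± 5.99 CPM in WT (n = 3, SD), a log2FC of -0.16. Mmp28 and Mmp17 had the smallest p, with log2 fold changes of 0.75 and 0.89 at 11 to 38 and 6 to 39 counts per library. Mmp2, gelatinase A, the enzyme that Mmp14 and Timp2 activate together, was at 7.15 ± 3.04 CPM in KO, against 5.90 ± 0.712 CPM in WT (n = 3, SD). Of 24 ADAM and ADAMTS genes 20 were tested, 13 higher and 7 lower in KO, with a median of 0.06 and none passing (0 at an unadjusted p under 0.05). Adam33, Adamts9 and Adamts5 had the smallest p, with log2 fold changes of -0.22, 0.59 and 0.53. Adamts9 had only 17 to 69 counts per library and Adamts5 15 to 39, with intervals from -0.44 to 1.62 and from -0.55 to 1.61. Adam17, the sheddase of TNF that Timp3 inhibits, had a log2 fold change of -0.02 (interval from -0.17 to 0.13).

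Genes that activate, inhibit or anchor metalloproteinases were 13 higher and 9 lower in KO among 22 tested, with a median of 0.04 and none passing. Itgb3, the beta 3 integrin chain, was the 1 gene of this list with an unadjusted p under 0.05, beside 3.1% of tested genes, at 50.4 ± 5.54 CPM in KO, against 40.2 ± 4.61 CPM in WT (n = 3, SD), a log2FC of 0.33. Cst3, the cysteine protease inhibitor cystatin C, had 0.09 and Plg, plasminogen, -0.88 at 8 to 35 counts per library. Furin, the protease that removes the prodomain of Mmp14, had -0.06, with an interval from -0.23 to 0.11. Plau, the urokinase gene, was at 314 ± 122 CPM in KO, against 280 ± 77.2 CPM in WT (n = 3, SD), a difference smaller than either standard deviation.

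Matrix substrates and matrix-binding proteins had values above 0 for 21 of 24 tested genes, beside 50% of all tested genes, with a median log2FC of 0.22, and 0 passed. The 2 with an unadjusted p under 0.05, beside 3.1% of all tested genes, were both lower in KO. They were Col14a1 (0.426 ± 0.146 CPM in KO, against 1.80 ± 0.614 CPM in WT, n = 3, SD, log2 fold change -2.07, edgeR adjusted p = 0.735) and Col18a1 (-0.25). Fbn1, fibrillin, had 0.42, and Col1a1, a chain of type I collagen, was at 67.0 ± 31.3 CPM in KO, against 50.3 ± 15.4 CPM in WT (n = 3, SD). Several of these genes are also stromal markers, whose sums by library stand above. Transcription factors that act on metalloproteinase genes had values below 0 for 19 of 26 tested genes and above 0 for 7, beside 50% of all tested genes above 0, with a median of -0.05 and none passing (0 at an unadjusted p under 0.05). Nfkb2, Rela and Cebpb had the smallest p, with log2 fold changes of -0.13, -0.14 and -0.14. Among AP-1 subunits, Fos was at 74.1 ± 13.04 CPM in KO, against 80.6 ± 16.1 CPM in WT, and Jun at 123 ± 4.82 CPM in KO, against 119 ± 9.32 CPM in WT (n = 3, SD).

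**Figure D4:**
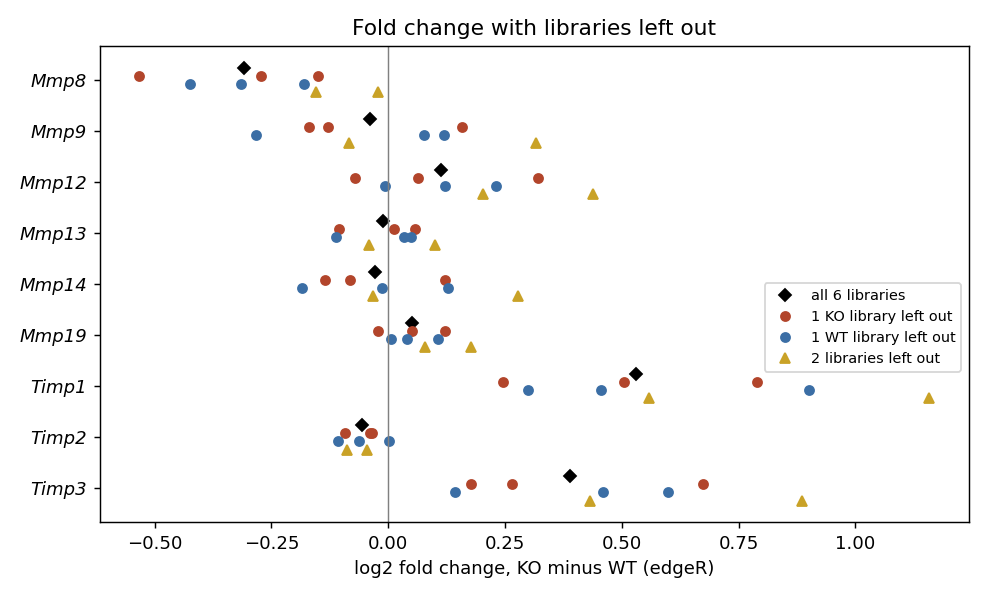
Log2 fold change of KO minus WT (edgeR) for each gene with all 6 libraries (diamonds) and with 1 KO library (red), 1 WT library (blue) or 2 libraries (triangles) left out. Mmp9, Mmp12, Mmp13, Mmp14, Mmp19 and Timp2 have values on both sides of 0, while Mmp8 stays below and Timp1 and Timp3 stay above in the settings drawn.

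The direction of the small differences rested on single libraries. With 1 library left out, the log2 fold change of Mmp12 ran from -0.07 without KO 3 to 0.32 without KO 1, and that of Mmp9 from -0.28 without WT 2 to 0.16 without KO 1. Mmp8 kept its sign in all 16 alternatives, between -0.53 and -0.02, as did Timp1, between 0.25 and 1.16, and Timp3, between 0.14 and 0.88.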

How the data were processed

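The values used are the read counts per gene that the authors deposited for 6 libraries of mouse macrophages, whole numbers with no normalization. HISAT2, HTSeq and fastp are named with build mm10 per the submitters' processing notes; their versions and settings, annotation, strand and filters included, were not given there. Per the labels' protocols, total RNA came from TRIzol extraction and the library kit was VAHTS Universal V6. Groups came from the sample titles.

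Counts were tested with edgeR 4.0.16 in R 4.3.3 (TMM factors, filterByExpr with a minimum count of 10, robust quasi-likelihood fits in legacy mode, KO minus WT), with Benjamini-Hochberg adjustment over 12605 genes and a threshold of 0.05. Standard errors were taken from the F statistic as |log2FC| over its root, with 95% intervals. CPM values use TMM-scaled library sizes, and 3 counts stand for 0.0730 to 0.0813 CPM, a floor that covers counting error only. The code was tested on simulated data. Counts of replicate pairs were compared by a chi-square test over genes, and no 2 libraries agreed within sampling noise. Lengths came from GENCODE M21, on the same assembly, and coordinates from RefSeq (GRCm38.p6), matched by Entrez Gene ID. Because the annotation used for counting is not known, levels per kilobase are approximate.

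Members, lists, motifs and libraries left out were chosen with earlier results of these data known. Named genes were the 9 members, the label checks Trmt61a and Lyz2, the 3 genes of each list with the smallest p, the leading markers and the 5 nearest profiles of 2 members; other names were added with the values in view. Alternatives were DESeq2 1.42.0, limma voom (limma 3.58.1), other normalizations and filters, fits without robust estimation, a replicate block, and libraries left out.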

Additional observations from a re-analysis of the deposited data

How the results depend on the processing

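The fold changes of the 9 genes were recomputed under 16 alternatives. Of these 144 values, 127 kept their direction and stayed on the same side of the threshold, 1 became a call (Timp1, above) and 16 changed sign, all 16 with libraries left out and none past the threshold. With 1 replicate left out, the log2 fold change ran from -0.28 to 0.16 for Mmp9, from -0.072 to 0.32 for Mmp12, from -0.11 to 0.057 for Mmp13, from -0.19 to 0.13 for Mmp14, from -0.021 to 0.12 for Mmp19 and from -0.11 to 0.0017 for Timp2. Without KO 1 and WT 3 together it was 0.32 for Mmp9, 0.10 for Mmp13 and 0.28 for Mmp14. The cause was not tested.

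The number of genes called was 4 in edgeR, 17 in DESeq2, 86 without KO 1 and WT 3 together, and 3 to 5 with 1 library left out. With the replicate number as a block, 8 genes were called and 0 members; same-numbered libraries correlated at 0.03, -0.13 and 0.25 in their deviations, and KO 1 correlated best with WT 2 (0.30), so the numbers were not taken to pair the samples. No member had an unadjusted p under 0.05 in 12 of the 16 alternatives. In the other 4, edgeR gave Mmp8 an unadjusted p of 0.0347 with the block and 0.0109 without KO 2 (adjusted p over alternatives 0.954 to 0.999965). Without KO 1 and WT 2 together it was 0.0018 for Timp3 and 0.036 for Mmp12, where 544 of 12701 tested genes were under 0.05. Without KO 1 and WT 3 together 5 members were under 0.05, Mmp12, Mmp14, Mmp19, Timp1 and Timp3. In that setting 1612 of 12683 tested genes were under 0.05. With 3 libraries a genotype, a 1.5-fold difference in at least 1 direction was within the interval of Mmp8, Mmp9, Mmp12, Timp1 and Timp3.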
